A study of Chlorocebus sabaeus with 6 samples.

Results

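The genes described here encode the integrin receptors and the adaptor proteins that gather at their cytoplasmic tails in focal adhesions. The list held 39 gene symbols, 21 integrin chains and 18 adaptors, and a gene was a member when its symbol stood in the deposited expression table. By that rule 37 of the 18050 genes in the table were members, and ITGA7 and PARVB had no row under their own symbols. Expression was measured by RNA sequencing in COS7, a fibroblast-like line from African green monkey kidney (Chlorocebus sabaeus) that was transformed with SV40. The samples were 3 of wild-type cells (WT) and 3 labelled as a knockout of ATL2 and ATL3 (DKO), the atlastins that fuse tubules of the endoplasmic reticulum. All were grown in DMEM with fetal bovine serum, penicillin and streptomycin. The labels do not say how many knockout clones the DKO samples represent, or whether the samples of a group were separate cultures, so the spread behind each p-value is that among these 6 samples and could be technical.

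An integrin is a heterodimer of 1 alpha and 1 beta chain, and the pair decides what the receptor binds. One group of alpha chains binds collagens, another laminins, and yet another the RGD peptide motif of fibronectin, vitronectin and related proteins. Talins and kindlins bind the beta tail and switch the receptor to its active form. Further adaptors then link it to actin and to kinases such as focal adhesion kinase. The beta 1 chain pairs with most alpha chains, whereas the beta 3, 5, 6 and 8 chains pair with alpha V, and beta 4 pairs with alpha 6 in the hemidesmosome, the anchor of epithelial cells to laminin.

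The 6 libraries held 14197344 to 15693049 estimated counts. Both targeted mRNAs were lower in every DKO sample: ATL2 had 29.2 to 32.2 FPKM in WT and 3.78 to 7.38 in DKO, and ATL3 had 34.7 to 37.3 and 3.5 to 5.93. FPKM is the number of fragments scaled to transcript length and to library size, and it is used below for levels. DKO replicate 3 stood apart from DKO replicates 1 and 2, with a chi-square per gene of 76.9 and 81.9 against them, whereas the other pairs within a group lay between 1.54 and 3.62. The vimentin mRNA VIM (1533 FPKM in WT and 1318 in DKO) and the keratin mRNAs KRT8 and KRT18 were abundant in both groups, and 4 of the 9 mesenchymal or fibroblast markers in the table (COL1A2, COL3A1, THY1 and DCN) were below 0.1 FPKM in every sample. Of 9 epithelial markers in the table, CDH1, CLDN4, ESRP1, DSP and KRT18 were called lower in DKO and EPCAM, KRT7 and KRT19 higher. DSP went from 46.4 FPKM in WT to 0.00333 in DKO, CLDN4 from 48.2 to 0.823, CDH1 from 4.84 to 0.0867 and ESRP1 from 1.24 to 0. EPCAM went from 12.9 to 32 and KRT19 from 0.24 to 1.15. The list summed to 1379 to 1497 FPKM in WT and 1327 to 1723 in DKO. Most of that sum lay in KRT7 (642.5 FPKM in WT and 879.4 in DKO), KRT8 (508.2 and 451.3, not called) and KRT18 (189.4 and 105.7). The 9 mesenchymal or fibroblast markers summed to 3360 to 3451 FPKM in WT and 1511 to 1562 in DKO. Most of that difference lay in FN1, the fibronectin gene and so an integrin ligand (1838 FPKM in WT and 207.4 in DKO). COL1A1 (7.4 and 1.06 FPKM) and S100A4 (34 and 10.8) were also called lower, PDGFRB (0.587 and 5.35) was called higher, and VIM was not called. The 8 smooth muscle markers summed to 66.3 to 73.5 FPKM in WT and 168.9 to 239.9 in DKO. Of these, 4 were called higher (MYL9, TAGLN, CNN1 and SMTN). Most of the difference lay in MYL9, at 0 FPKM in every WT sample and 73.5, 76.1 and 112.6 in DKO. DES was not called, and ACTA2, MYH11 and LMOD1 had too few counts to test. The 8 endothelial markers summed to 0.79 to 1.48 FPKM in WT and 16 to 16.7 in DKO, with TEK as the 1 marker with a group mean above 1 FPKM. The part of all these markers in the integrin results was not tested. In these bulk samples, fewer cells with a transcript and less transcript per cell cannot be told apart.

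Several integrin chains were called between DKO and WT. The main beta chain ITGB1 and its most abundant alpha partners in WT, ITGA3, ITGA5 and ITGA6, were not called with all samples. Without DKO replicate 3 they were called, ITGB1 higher and the alpha chains lower. The collagen receptor chain ITGA11 was 23-fold higher in DKO, and ITGB5 was 1.68-fold higher. ITGB3 was 20.4-fold lower, ITGB4 29.9-fold lower, and ITGA4 was not detected in DKO. Of the 34 members that passed the filter on low counts, 7 were called higher and 15 lower in DKO and 12 were not called (edgeR quasi-likelihood test, adjusted p below 0.05). That is 64.7% of the tested members, beside 45.5% of all 13094 genes tested. By direction it is 20.6% higher and 44.1% lower, beside 23.3% and 22.2% of all genes. The median log2 fold change (DKO over WT) was -0.38 for the tested members and -0.01 for all tested genes. The samples of 26 tested members (76.5%) did not overlap between the groups, beside 62.5% of all genes. Counting only calls that moved by 1 or more on the log2 scale, 2 members were higher and 11 lower, beside 21.9% of all genes in either direction.

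Among integrin chains, 4 of 18 tested were higher and 9 lower, and among adaptors 3 of 16 were higher and 6 lower. The 8 beta chains accounted for 6 of the lower calls. In the same fit 23.3% of all genes were higher and 22.2% lower. Without DKO replicate 3, which left 5 samples, all 22 called members kept their call and direction, and 10 more were called. ITGA1, ITGB1, FERMT2 and TLN1 were then higher and ITGA3, ITGA5, ITGA6, ILK, LIMS1 and TNS1 lower. That made 11 members higher and 21 lower, or 94.1% of those tested, beside 36.0% of all genes higher and 38.6% lower (74.6% in all) in the same fit. Relative to the mean of DKO replicates 1 and 2, DKO replicate 3 was lower by at least 0.5 on the log2 scale for 8 tested members and higher by as much for 5, together 38.2% of them, beside 40.4% of all genes. The 8 were ITGA1, ITGA2, ITGA6, ITGAV, ITGB1, ITGB8, FERMT2 and LIMS1, and the 5 were ITGA3, ITGB2, ITGB7, ILK and ZYX.

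**Figure D1:**
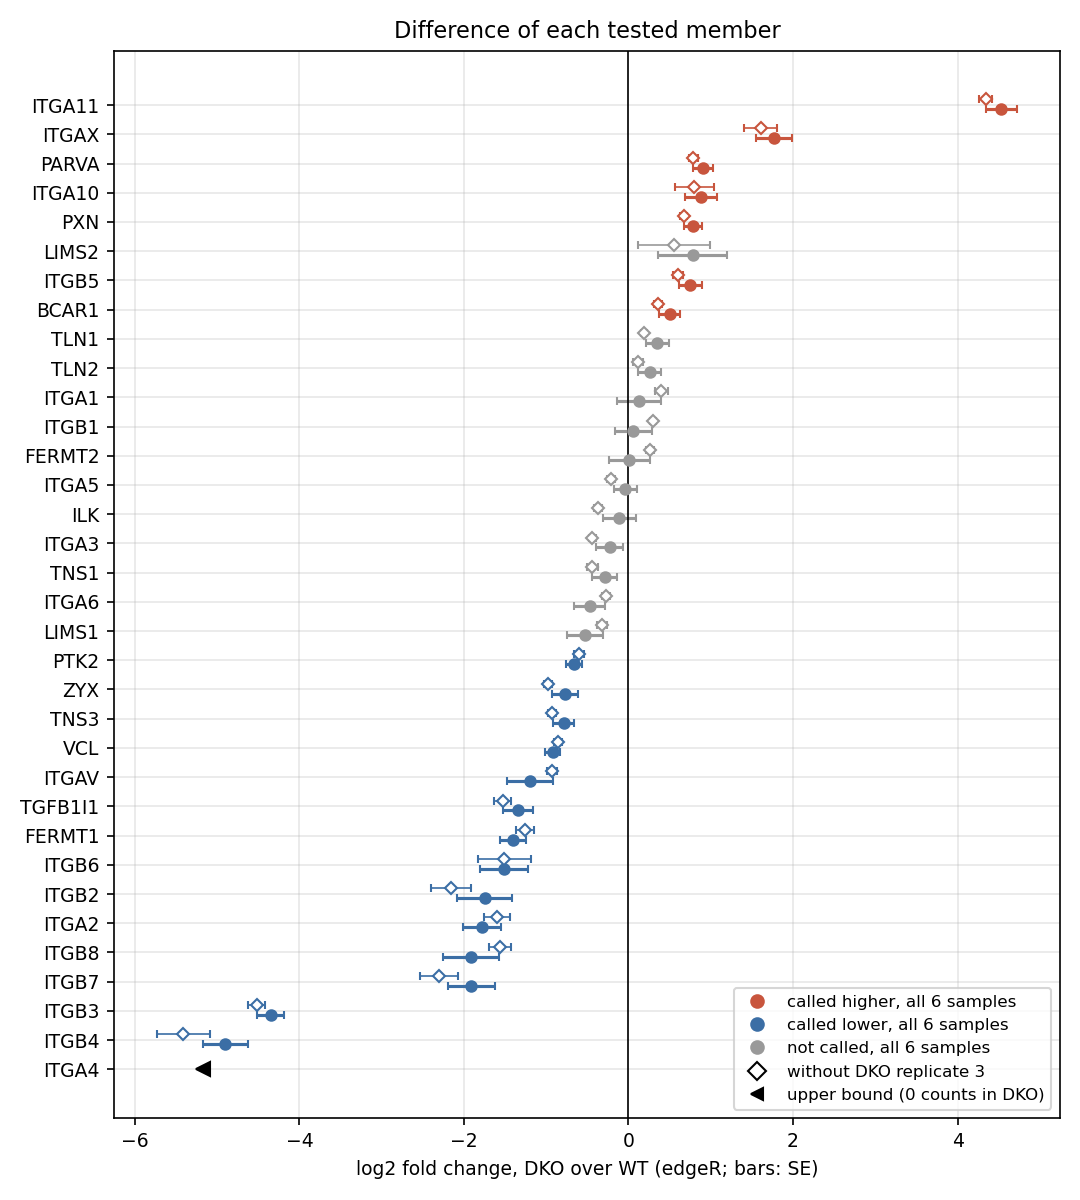
Log2 fold change of each tested member, DKO over WT (horizontal axis, edgeR), with bars for the SE. Filled circles use all 6 samples and open diamonds leave out DKO replicate 3, and the triangle marks ITGA4, which had 0 counts in DKO and is drawn at its bound of -5.17. ITGA11 lies far to the right and ITGB3, ITGB4 and ITGA4 far to the left.

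ITGB1 encodes the beta chain shared by the collagen, laminin and fibronectin receptors, and it had the highest FPKM of all members in both groups. Its level was 287, 268.1 and 300.7 FPKM in WT and 344.3, 356.5 and 174 FPKM in DKO. DKO replicates 1 and 2 lay above every WT sample and DKO replicate 3 below them. ITGB1 was not called with all samples (log2 fold change 0.06, SE 0.23, edgeR adjusted p = 0.86), and it was called higher at 0.30 (SE 0.04, edgeR adjusted p = 3.2e-09) without DKO replicate 3. The direction of this gene also turned to -0.07 and -0.10 without DKO replicates 1 and 2.

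The collagen-binding alpha chains pair with beta 1, and their order changed. ITGA11, the alpha chain of a collagen receptor of mesenchymal cells, had 1.13, 1.23 and 1.06 FPKM in WT and 22.8, 23.3 and 30.6 in DKO. The groups were far apart (log2 fold change 4.53, SE 0.19, edgeR adjusted p = 8.1e-06). ITGA1 had 3.88, 3.84 and 3.91 FPKM in WT and 5.42, 4.77 and 2.34 in DKO. This gene was not called with all samples (log2 fold change 0.13, SE 0.27) but was higher without DKO replicate 3 (0.40, edgeR adjusted p = 1.1e-05). ITGA2, the alpha chain of another collagen receptor, fell from 1.93, 1.65 and 1.89 FPKM to 0.48, 0.71 and 0.36 (-1.78, SE 0.23, edgeR adjusted p = 0.00086). ITGA10 rose at a low level, from 0.25 to 0.33 FPKM in WT to 0.49 to 0.57 in DKO (0.88, SE 0.19). The summed level of the 4 chains was 7.05 to 7.26 FPKM in WT and 29.2 to 33.8 in DKO. ITGA1 made up 54.3% ± 0.788 of that sum in WT (SD, n = 3) and ITGA11 16% ± 1.32. In DKO the shares were 13.9% ± 6.17 for ITGA1 and 82.6% ± 6.70 for ITGA11.

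The laminin-binding chains were among the most abundant alpha chains. ITGA3, whose dimer with beta 1 is a main laminin receptor of epithelia, had 127.7, 139.4 and 130.5 FPKM in WT and 96, 98.8 and 134 in DKO. The groups overlapped through DKO replicate 3, and ITGA3 was not called (-0.23, SE 0.16, edgeR adjusted p = 0.29). Without that sample ITGA3 was called lower at -0.44. ITGA6, which can pair with beta 1 or beta 4, had 31.4, 31.8 and 31.8 FPKM in WT and 27, 26.3 and 15.1 in DKO. Every DKO sample was below every WT sample, but the difference was not called with all samples (-0.47, SE 0.19, edgeR adjusted p = 0.084) and was called without DKO replicate 3 (-0.27).

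ITGB4, the beta chain of the hemidesmosome, was already far below ITGA6 in WT. It had 1.41, 1.4 and 1.48 FPKM in WT and 0.04, 0.03 and 0.06 in DKO, from 115 to 123 counts in WT and 2 to 6 in DKO. The groups did not overlap (log2 fold change -4.90, SE 0.27, edgeR adjusted p = 2.1e-05). With so few DKO counts, the size of the fold is less certain than its direction. The partners of the alpha 6 beta 4 integrin were a list of 7 genes, of which 6 were tested, 5 were lower and 0 higher (median log2 fold change -0.99), beside 22.2% of all genes lower and 45.5% called in either direction. At an unadjusted p below 0.05, 1 gene was higher in edgeR, and DESeq2 called 1 higher at its adjusted p. The laminin chain gene LAMA3 fell from 3.98 ± 0.174 to 0.107 ± 0.00577 FPKM (SD, n = 3 each). The plakins DST (-0.88, SE 0.10) and PLEC (-0.47, SE 0.13), which tie the integrin to keratin filaments, and the collagen COL17A1 (0.317 ± 0.0666 to 0.143 ± 0.0351 FPKM) were also lower. The tetraspanin gene CD151 was the tested gene that was not called, at 125.8 ± 9.28 FPKM in WT and 176.2 ± 42.7 in DKO (edgeR adjusted p = 0.062). LAMA3, COL17A1 and CD151 fall outside the rule for named genes and are named because the list is small, after their values were seen. Without WT replicate 3 the lower count was 3.

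Of the RGD-binding alpha chains, ITGAV was called lower in DKO and ITGA5 was not called with all samples. ITGA5, the alpha chain of the classical fibronectin receptor, had 48.7, 49.8 and 46.6 FPKM in WT and 41.7, 41.7 and 53.1 in DKO. The groups overlapped and ITGA5 was not called (-0.04, SE 0.14, edgeR adjusted p = 0.82). Without DKO replicate 3 the gene was called lower at -0.21, and without DKO replicate 1 or 2 its log2 fold change was 0.02. ITGAV, the alpha chain of the vitronectin receptors, fell from 25.6, 22.4 and 26.3 FPKM to 12.4, 13.4 and 6.98 (-1.20, SE 0.28, edgeR adjusted p = 0.011). Its lowest WT sample lay above its highest DKO sample. The fibronectin mRNA itself, FN1, was 1897, 1832 and 1783 FPKM in WT and 190.1, 200.3 and 231.9 in DKO (log2 fold change -3.10, SE 0.12, edgeR adjusted p = 6.5e-06).

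Of the beta chains that pair with alpha V, ITGB5 was called higher in DKO and ITGB3, ITGB6 and ITGB8 lower, and ITGB5 had the highest FPKM of these chains in every sample. ITGB3 had 17.2, 17.2 and 17.4 FPKM in WT and 0.7, 0.79 and 1.14 in DKO, from 1278 to 1305 counts in WT and 50 to 75 in DKO. No DKO sample came near the WT range (log2 fold change -4.35, SE 0.16, edgeR adjusted p = 5.9e-06). ITGB5, whose dimer with alpha V also binds vitronectin, rose from 22.1, 24.1 and 21.2 FPKM to 34.1, 33.7 and 41.7 (0.75, SE 0.14, edgeR adjusted p = 0.005). The other partners of alpha V, which are known for activating latent TGF-beta, fell from low levels. ITGB8 had 1.65, 1.5 and 1.53 FPKM in WT and 0.58, 0.5 and 0.18 in DKO (-1.91, SE 0.34, edgeR adjusted p = 0.0036). ITGB6 had 0.59, 0.37 and 0.76 FPKM in WT and 0.18, 0.29 and 0.21 in DKO (-1.51, SE 0.29, edgeR adjusted p = 0.0054). The summed FPKM of these 4 beta chains was 41 to 43.2 in WT and 35.2 to 43.2 in DKO. ITGB3 held 41.3% ± 1.31 of the sum in WT and 2.28% ± 0.336 in DKO, and ITGB5 53.6% ± 1.97 and 96.0% ± 0.475 (SD, n = 3 each).

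**Figure D2:**
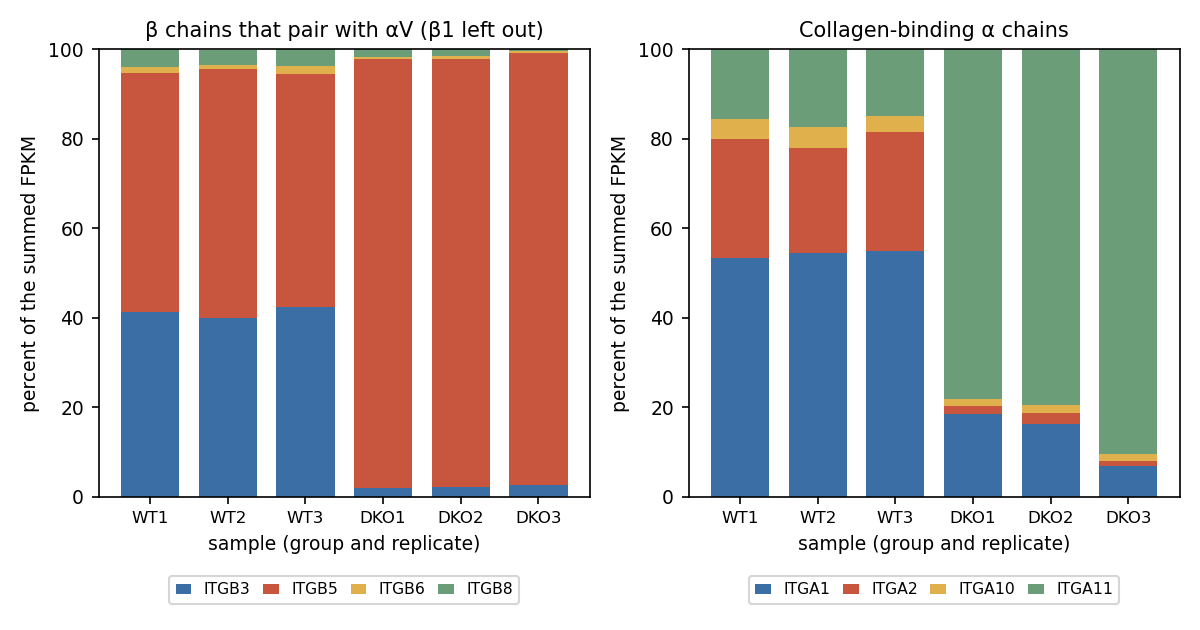
Percent of the summed FPKM (vertical axis) held by each chain in each sample, for the beta chains that pair with alpha V other than beta 1 (left) and for the collagen-binding alpha chains (right). ITGB3 shrinks from 39.9 to 42.5% in WT to 1.97 to 2.64% in DKO, and ITGA11 grows from 14.9 to 17.4% to 78.1 to 90.3%.

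The alpha 4 chain and the chains best known from leukocytes were low throughout. ITGA4, whose dimers bind VCAM1 and fibronectin, had 106, 114 and 119 counts in WT (1.43, 1.55 and 1.6 FPKM) and 0 in every DKO library. Against a floor of 3 counts per library it was at least 36-fold lower in DKO (edgeR adjusted p = 6.1e-05), a bound that covers counting error only. ITGB7, a partner of alpha 4 in lymphocytes, fell from 2.13, 2.81 and 2.41 FPKM to 0.55, 0.38 and 0.89 (-1.91, SE 0.29, edgeR adjusted p = 0.0018). ITGB2, the common beta chain of leukocyte integrins, fell from 1.31, 1.61 and 2.04 FPKM to 0.45, 0.29 and 0.67 (-1.75, SE 0.33, edgeR adjusted p = 0.0044). Its partner ITGAX went the other way, from 0.59, 0.39 and 0.4 FPKM to 1.36, 1.43 and 1.74 (1.77, SE 0.22, edgeR adjusted p = 0.00065). In all 3 the groups did not overlap. Of 9 leukocyte markers in the table, 1 reached 1 FPKM in either group (CORO1A, at 3.54 FPKM in WT and 3.69 in DKO). The whole list summed to 3.38 to 4.19 FPKM in WT and 3.38 to 5.08 in DKO, and the defining marker PTPRC was at 0.133 and 0.00333 FPKM. ITGA8, a receptor chain for nephronectin in the kidney, had 2 counts over the WT libraries and 1 over the DKO libraries. ITGA9 had 7 and 4 counts, a DKO over WT ratio of 0.598 (exact 95% counting interval 0.128 to 2.35), so no difference was detectable at this depth.

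**Figure D3:**
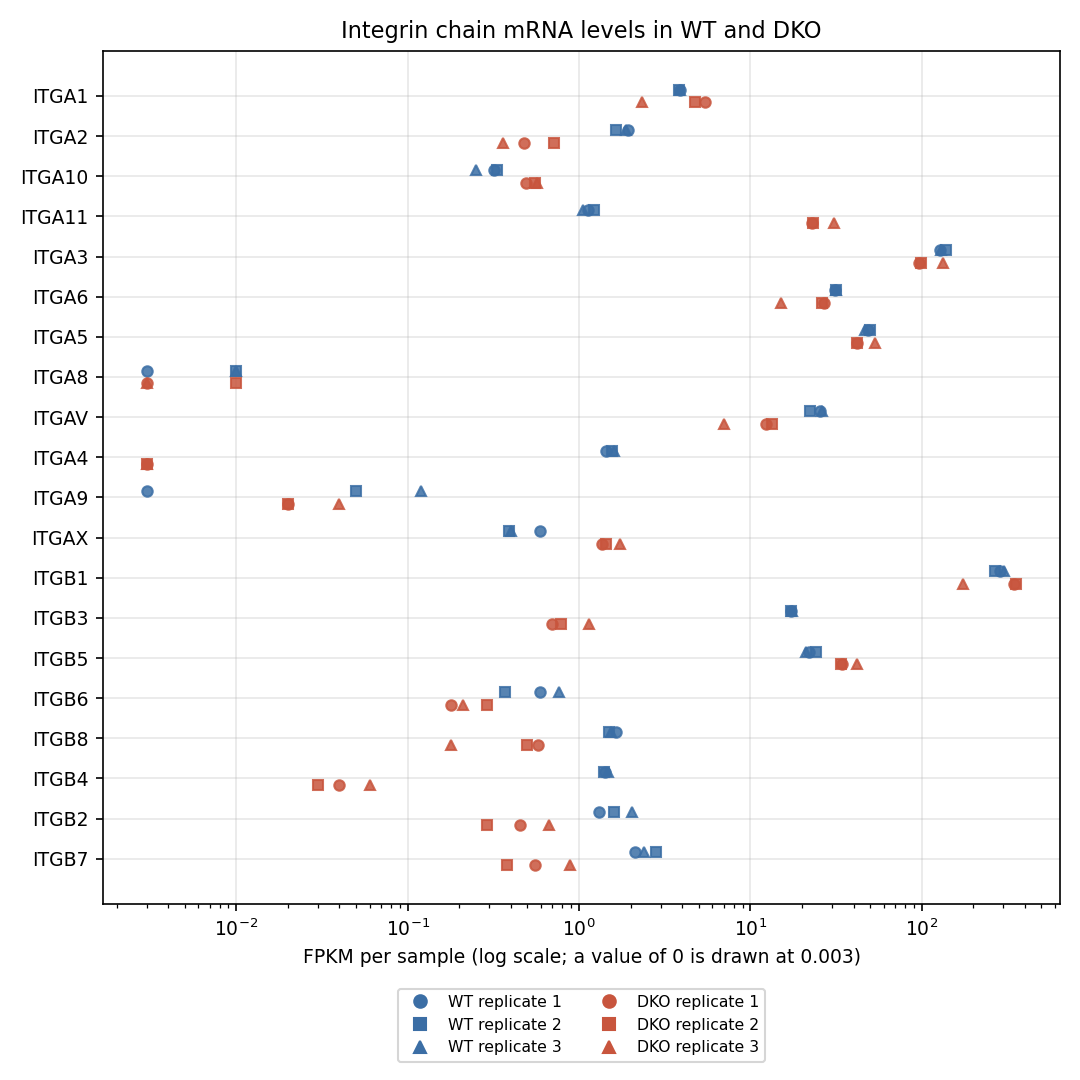
FPKM of the 20 integrin chains in each of the 6 samples (horizontal log axis, with 0 drawn at 0.003), WT in blue and DKO in red, with a marker shape for each replicate number. ITGB1 and ITGA3 are at the top of the range in both groups, and ITGA11, ITGB3, ITGB4 and ITGA4 show the widest gaps between the groups.

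Viewed as dimers, 18 of a list of 19 known pairs had both chains in the table. The list held no pair of ITGAE, ITGA2B, ITGAM or ITGAD, which are not members. For each pair the lower of its chains' FPKM values is given, as a description of mRNA and not of protein or of assembled receptor. Both chains reached a group mean of 1 FPKM for 13 of the listed dimers in WT and for 7 in DKO. In WT the lower-chain level was highest for alpha 3 beta 1 (132.5 ± 6.10 FPKM), then alpha 5 beta 1 (48.4 ± 1.62) and alpha 6 beta 1 (31.7 ± 0.22). In DKO it was highest for alpha 3 beta 1 (109.6 ± 21.1) and alpha 5 beta 1 (45.5 ± 6.60). Alpha 11 beta 1 (25.6 ± 4.33) and alpha 6 beta 1 (22.8 ± 6.72) followed (SD, n = 3 throughout). The order of these last pairs turned on DKO replicate 3. Alpha 6 beta 1 was the higher in DKO replicates 1 and 2 (27 and 26.3 FPKM against 22.8 and 23.3). It was the lower in DKO replicate 3 (15.1 against 30.6). The listed pairs that reached 1 FPKM in WT but not in DKO were alpha 2 beta 1, alpha 6 beta 4, alpha V beta 3, alpha V beta 8, alpha 4 beta 1 and alpha 4 beta 7. Outside the list, alpha E beta 7 did the same, with ITGAE at 2.68 FPKM in WT and 3.02 in DKO and ITGB7 at 2.45 and 0.607.

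The scarcer chain was the alpha chain for every beta 1 pair in both groups. For alpha V beta 3 it was ITGB3 in both. For alpha V beta 5 the chains were close in WT, with ITGB5 lower in 2 of the 3 samples, and ITGAV was the lower chain in every DKO sample. The lower-chain level of alpha V beta 5 was 22.1, 22.4 and 21.2 FPKM in WT and 12.4, 13.4 and 6.98 in DKO, although ITGB5 itself was higher in DKO. The alpha chains of beta 1 summed to 242 to 252 FPKM in WT and 206.4 to 243 in DKO. ITGB1 stood at 1.06 to 1.23 times that sum in WT. In DKO it was 1.67 and 1.70 times in replicates 1 and 2 and 0.716 times in replicate 3, so the samples of DKO lay on both sides of WT. ITGA11 held 0.463% ± 0.0271 of the alpha sum in WT and 11.6% ± 0.86 in DKO, and ITGAV 10.1% ± 1.04 and 5.10% ± 1.94.

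Among the activators, the talins were not called with all samples. TLN1, the main talin, had 49.3, 49.3 and 46.5 FPKM in WT and 54.1, 55.4 and 70.4 in DKO. Every DKO sample was above WT (log2 fold change 0.35, SE 0.14, edgeR adjusted p = 0.071), and the gene was called higher without DKO replicate 3 (0.19). TLN2 ranged from 4.11 to 4.26 FPKM in WT and from 4.5 to 5.58 in DKO and was not called in either fit. FERMT1, the kindlin of epithelial cells, fell from 4.45, 3.79 and 4.04 FPKM to 1.7, 1.69 and 1.19 (-1.40, SE 0.16, edgeR adjusted p = 0.00055). FERMT2, the kindlin of most other cells, had 33.7 to 36.8 FPKM in WT, and in DKO 41.9 and 42.7 in replicates 1 and 2 but 20 in replicate 3. With all samples its log2 fold change was 0.01 (SE 0.25), and without DKO replicate 3 it was called higher at 0.26. FERMT3, the kindlin of blood cells, had 1 or 2 counts per library. FERMT2 thus made up 89.6% ± 0.609 of the summed kindlin FPKM in WT and 95.4% ± 1.09 in DKO.

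Integrin-linked kinase (ILK) is a pseudokinase that binds a PINCH protein and a parvin. Of these genes, PARVA, which encodes the widely expressed alpha-parvin, rose from 48.7, 45.6 and 47.5 FPKM to 82, 81.4 and 94.4 (log2 fold change 0.91, SE 0.12, edgeR adjusted p = 0.00086). ILK had 66, 67.9 and 64.2 FPKM in WT and 50.3, 51.7 and 74.8 in DKO, where replicate 3 lay above WT and the others below (-0.11, SE 0.20). LIMS1, the main PINCH gene, had 33 to 36.5 FPKM in WT and 21.1 to 27.6 in DKO (-0.53, SE 0.22, edgeR adjusted p = 0.082). Both were called lower without DKO replicate 3, ILK at -0.37 and LIMS1 at -0.32. LIMS2 had 5 to 19 counts per library and was not called. The RefSeq table of assembly mChlSab1.0.hap1 gives the symbols PARVB and ITGA7 to 2 gene IDs that carry no such symbol in the deposited table, and these rows lie outside the membership rule. The row of PARVB, a second parvin, had 14.8, 13.9 and 13.6 FPKM in WT and 42.2, 43.9 and 57.4 in DKO (1.82, SE 0.18, edgeR adjusted p = 0.00024). That of ITGA7, a laminin-binding chain of muscle, had 0.58 to 0.75 and 0.21 to 0.44 FPKM (-1.05, SE 0.28, edgeR adjusted p = 0.021).

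Of the signalling adaptors, paxillin rose and its relative HIC-5 fell. PXN, the gene of paxillin, a scaffold that recruits kinases to new adhesions, had 70.8, 73 and 68.3 FPKM in WT and 108.6, 116.5 and 129.3 in DKO (log2 fold change 0.78, SE 0.11, edgeR adjusted p = 0.0013). TGFB1I1, the gene of HIC-5, a paxillin relative induced by TGF-beta, had 17.2, 18.8 and 16 FPKM in WT and 6.49, 5.48 and 7.87 in DKO (-1.34, SE 0.18, edgeR adjusted p = 0.0012). In neither gene did the groups overlap. PTK2, which encodes focal adhesion kinase, fell from 19.4 to 20.3 FPKM in WT to 10.8 to 13.2 in DKO (-0.66, SE 0.10, edgeR adjusted p = 0.0021). BCAR1, the gene of the scaffold p130Cas that this kinase and Src phosphorylate, was higher, at 29.6 to 31.1 FPKM in WT and 38.8 to 47.4 in DKO (0.50, SE 0.13, edgeR adjusted p = 0.017). The BCAR1 call did not hold without WT replicate 1, 2 or 3 (edgeR adjusted p = 0.078, 0.062 and 0.071).

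Of the 4 genes listed as actin linkers, VCL, ZYX and TNS3 were called lower in DKO and TNS1 was not called with all samples. VCL, the gene of vinculin, which reinforces stretched talin, had 71.2, 68.5 and 72 FPKM in WT and 37.9, 39.5 and 31.7 in DKO (log2 fold change -0.92, SE 0.09, edgeR adjusted p = 0.0003). ZYX, the gene of zyxin, found in mature adhesions and stress fibres, had 189.9, 195.7 and 175 FPKM in WT and 93.7, 97.3 and 128.1 in DKO (-0.77, SE 0.16, edgeR adjusted p = 0.0079). The lowest WT sample exceeded the highest DKO sample in both. TNS3, a tensin, fell from 34.7 to 37.1 FPKM to 18.6 to 23.3 (-0.79, SE 0.13, edgeR adjusted p = 0.0025). TNS1, the tensin of fibrillar adhesions, ranged from 4.34 to 4.93 FPKM in WT and from 3.15 to 4.21 in DKO and was called lower only without DKO replicate 3 (-0.29 with all samples, -0.44 without it).

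**Figure D4:**
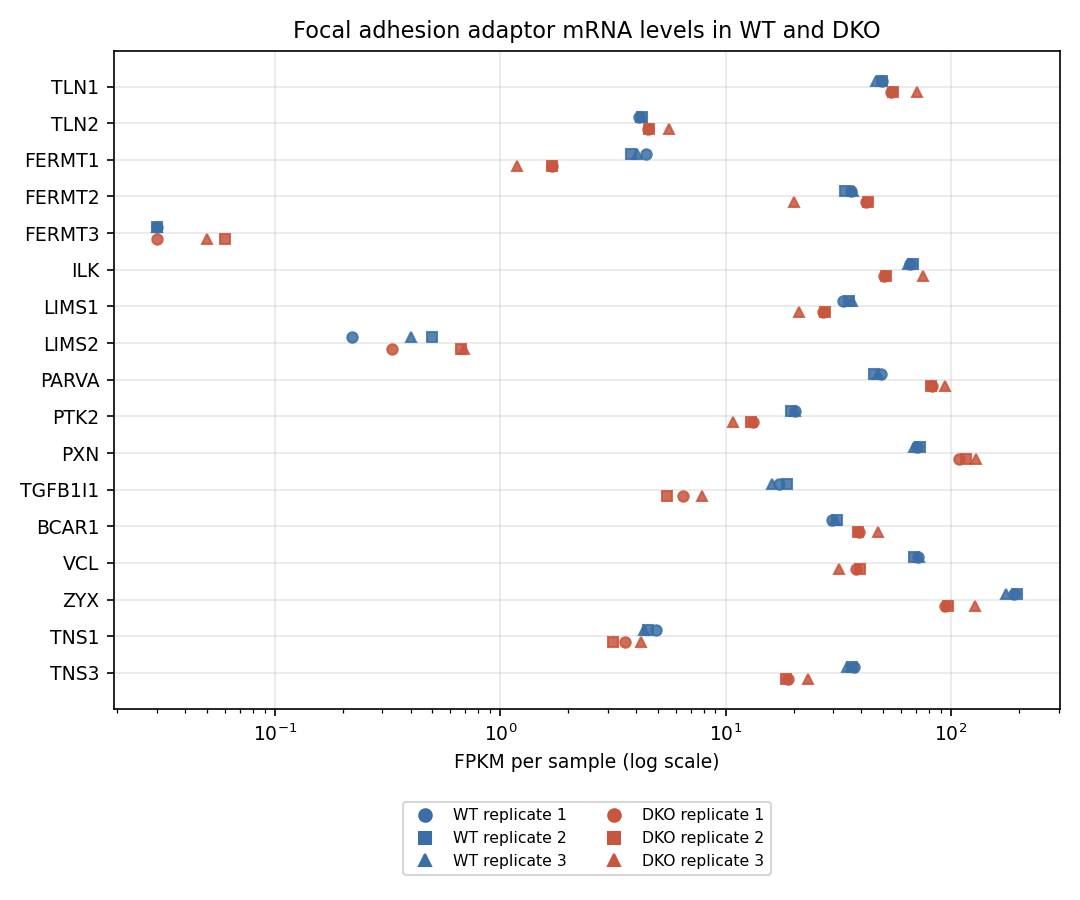
FPKM of the 17 focal adhesion adaptors in each of the 6 samples (horizontal log axis), WT in blue and DKO in red, with a marker shape for each replicate number. PXN and PARVA lie to the right of WT in DKO, VCL, ZYX, TNS3, TGFB1I1 and FERMT1 to the left, and FERMT2, ILK and LIMS1 show DKO replicate 3 (triangle) away from the other DKO samples.

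A wider list of adhesion signalling genes beyond the members had 70 symbols, of which 66 were tested, with 12 higher, 23 lower and 31 not called (median log2 fold change -0.18). The share called was 53.0%, beside 45.5% of all genes. FBLIM1, the gene of migfilin, which links kindlin to filamin, fell from 22.1, 24 and 23.8 FPKM to 0.7, 1.11 and 0.91 (-4.64, SE 0.19, edgeR adjusted p = 6.8e-06). The filamin gene FLNA fell from 221 ± 8.93 to 92.6 ± 18.7 FPKM (-1.21, SE 0.16). ENAH, the gene of an actin polymerase (-1.28, SE 0.21), and PALLD, of the actin cross-linker palladin (-1.16, SE 0.13), fell as well. Higher were KANK1, whose product binds talin at the rim of adhesions, from 5.0 ± 0.35 to 12.5 ± 0.875 FPKM (1.36, SE 0.13), and PDLIM1 (1.28, SE 0.15). TRIP6, a relative of zyxin, rose from 52.6 ± 3.34 to 117 ± 24.1 FPKM (1.17, SE 0.18) and the Src-family kinase gene FYN from 4.64 ± 0.135 to 8.29 ± 0.48 (0.89, SE 0.13). Without DKO replicate 3, where 74.6% of all genes were called, the counts were 19 higher and 35 lower. Without WT replicate 1, 2 or 3 they were 8, 7 and 7 higher and 13, 15 and 13 lower. That is 31.8%, 33.3% and 30.3% of the list called, near the 32.2%, 33% and 32.1% of all genes in the same fits. With a block for the replicate number it was 36.4%, beside 34.3% of all genes.

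On the ligand side, 29 of 38 listed genes were tested, with 6 higher and 14 lower (median log2 fold change -0.54), or 69.0% called, beside 45.5% of all genes. By direction all genes had 23.3% higher and 22.2% lower. Besides FN1, the lower genes included the fibrillar collagen gene COL5A2 (41.1 ± 1.82 to 1.42 ± 0.0379 FPKM) and LAMA4, a laminin chain of vessels and mesenchyme (20.3 ± 0.586 to 2.32 ± 0.239 FPKM). The higher genes included CCN2, a matricellular protein gene (129.6 ± 4.37 to 428.8 ± 23.7 FPKM; 1.77, SE 0.08), the tenascin gene TNC (3.36 ± 0.303 to 9.45 ± 1.17), the laminin gene LAMB2 (7.09 ± 0.0781 to 19.5 ± 4.65) and the osteopontin gene SPP1 (18.0 ± 1.15 to 29.9 ± 1.35; SD, n = 3 each). LAMA3 is also in this list. Without DKO replicate 3 the counts were 9 higher and 19 lower, in a fit that called 74.6% of all genes.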

How the data were processed

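RNA of 3 WT and 3 DKO samples, grouped by their titles, was sequenced from libraries made with a BGI mRNA kit, per the labels' protocols. The authors deposited 1 table of 18050 genes. Its columns give FPKM and estimated counts for each sample, per the file headers. The submitters' processing notes name HISAT and Bowtie2. For versions, the counting program, strand and genome build, nothing is given in the sources used here. A further 9 columns, of samples outside both groups, were left out. Of the gene IDs, 92.7% matched RefSeq (mChlSab1.0.hap1), which was used for names and neighbours only, so no coordinates are given. Reads of near-identical copies may be divided between genes.

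Estimated counts, rounded to whole numbers, entered edgeR 4.0.16 under R 4.3.3 (quasi-likelihood test, TMM, default filter by group with a minimum count of 10). P-values were adjusted by Benjamini-Hochberg over the 13094 genes tested, and a gene was called at an adjusted p below 0.05. Each SE was derived from the fold change and its F statistic. Levels are the deposited FPKM with SD. Intervals and bounds cover counting error only. The test was checked on simulated counts, in which few genes changed and no sample was made to stand apart. Alternatives were each sample left out, a block for the replicate number, no filter, other normalizations, DESeq2 1.42.0 and limma 3.58.1 on log2 FPKM with pseudocounts of 1 and 0.1. Values in every sample are given for called members that moved by 1 or more on the log2 scale, for chains of dimers at 1 FPKM and for members at 50 FPKM. From the other lists, up to 4 called genes of each direction with at least 5 FPKM and the largest change are named, except for 1 gene that is not reported here. The members and lists were chosen with earlier results of these data known.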

Additional observations from a re-analysis of the deposited data

How the results depend on the processing

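Over the 8 alternatives other than leaving out a sample, 6 to 7 members were called higher and 15 to 16 lower. Among all genes these fits called 2220 to 3111 higher and 2265 to 3492 lower. When each sample was left out in turn, 6 to 11 members were higher and 15 to 21 lower. The same left-out samples gave 2105 to 4770 genes higher and 2146 to 5110 lower among all tested, 7 to 19 and 13 to 35 in the adhesion signalling list, 6 to 9 and 14 to 19 in the ligand list, and 0 to 1 and 3 to 5 in the hemidesmosome list. DESeq2 called 1 hemidesmosome gene higher. With the replicate block, 6 members were higher and 15 lower, among 2220 and 2265 of all genes, and BCAR1 (log2 fold change 0.48, edgeR adjusted p = 0.058) was the member that lost its call. The block gave 8 and 16 in the adhesion signalling list, 6 and 14 in the ligand list and 0 and 4 in the hemidesmosome list. The deviations of same-numbered WT and DKO samples correlated at 0.04, -0.35 and -0.34, and those of differently numbered ones at -0.33 to 0.37. The deviations were taken from the mean of only 3 samples per group. These values therefore cannot show whether a shared number marks a pair. LIMS1 was called lower by limma (adjusted p = 0.027 at both pseudocounts, 0.023 at 1 FPKM or more).

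No called member changed direction. Signs changed for 5 members that were not called. ITGB1 was at -0.04 in the 3 limma fits and at -0.07 and -0.10 without DKO replicates 1 and 2. FERMT2 was at -0.01 with DESeq2, RLE factors, upper-quartile factors and no filter, -0.06 with the replicate block, -0.10 in the 3 limma fits, and -0.14, -0.16 and -0.04 without DKO replicate 1, DKO replicate 2 and WT replicate 2. ITGA1 was at -0.10, ITGA5 at 0.02 and ILK at 0.00 without DKO replicate 1, and ITGA5 at 0.02 without DKO replicate 2. Without DKO replicate 3 they were called, ITGA1 at 0.40, ITGB1 at 0.30 and FERMT2 at 0.26 as higher, ITGA5 at -0.21 and ILK at -0.37 as lower. The cause was not tested. On log2(FPKM + 1) low members change less by construction, and ITGB4 was at -1.22 and ITGB3 at -3.29. Depth limits ITGA8, ITGA9 and FERMT3, which had too few counts to test.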

Other observations

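The table also held 4 integrin alpha chains outside the member list. ITGA2B, the platelet partner of beta 3, had 20 to 24 counts in WT and 7 to 12 in DKO (log2 fold change -1.09, SE 0.25, edgeR adjusted p = 0.011). ITGAE, the partner of beta 7 in epithelial lymphocytes, was not called (WT 2.68 ± 0.269 FPKM, DKO 3.02 ± 0.534; SD, n = 3). ITGAM and ITGAD, which lie next to ITGAX in the RefSeq annotation, had at most 6 and 1 counts in a library, whereas ITGAX had 78 to 110 counts in each DKO library.

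Neighbouring genes were read from the order of genes in RefSeq. Of 32 tested genes directly beside a called member, 11 were called in the direction of that member, 2 in the other direction and 19 were not called. That is 40.6% called, beside 45.5% of all genes tested. On one side of ITGA4, UBE2E3 was at 74.2 FPKM in WT and 74.4 in DKO, and on the other side the gene that RefSeq names CERKL was at 0.617 FPKM in WT and listed at 0 in DKO. Reads of overlapping neighbours cannot be told apart without the strand. ITGA2 and ITGA1 are neighbours, and ITGA2 was called lower while ITGA1 was not called. Beside VCL, the urokinase gene PLAU went from 22.6 FPKM in WT to 1.8 in DKO (log2 fold change -3.60).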
